A study of Homo sapiens with 4 samples.

Results

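Chromosome 19 carries the densest concentration of zinc finger genes in the human genome. Its numbered zinc finger genes, those with symbols of the form ZNF followed by a number, were taken here as every protein-coding row of the deposited table on chromosome 19 with such a symbol and a mean normalised read count of at least 1 over the 4 libraries. This gave 188 genes, from 198 with such a symbol before the minimum on level, in a table of 26336 genes. Symbols that carry a further letter (7 genes) were not included. The cells were MDA-MB-231, an established line of triple-negative human breast cancer, labelled wild type in both groups. They were exposed for 24 h to the series' code-named ALKBH5 inhibitor (its code stands in the plot legends) or to the vehicle DMSO, with 2 libraries per group, and no concentration was used here. ALKBH5 is an enzyme that removes the methyl group of N6-methyladenosine from RNA.

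Most proteins of this family read DNA with tandem fingers, each a short fold in which a pair of cysteines and a pair of histidines hold a zinc ion. Many carry a KRAB domain at the amino terminus. KRAB binds TRIM28, which brings in the histone methyltransferase SETDB1 and heterochromatin proteins, and the best studied targets are transposable elements. The genes arose by repeated tandem duplication, so that neighbours in a cluster resemble each other in sequence.

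The repeat unit shows what these genes share and where they differ in base composition. The stretches below encode a single finger and the linker that follows it, the first in each protein with the linker threonine, glycine, glutamate, lysine, proline. Capitals mark the codons of the zinc-binding cysteines and histidines. The sequences are from GENCODE release 29 transcripts on GRCh38, and all 4 genes lie on chromosome 19.
ZNF441: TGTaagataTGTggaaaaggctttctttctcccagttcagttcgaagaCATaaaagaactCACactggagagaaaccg
ZNF146: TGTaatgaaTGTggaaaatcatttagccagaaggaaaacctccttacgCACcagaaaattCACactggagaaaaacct
ZNF91: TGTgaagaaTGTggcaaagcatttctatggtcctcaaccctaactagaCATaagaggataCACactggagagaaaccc
ZNF865: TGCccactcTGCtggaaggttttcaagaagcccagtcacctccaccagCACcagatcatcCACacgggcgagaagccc
The GC content of these stretches of 78 bases was 41.0% in ZNF441, 38.5% in ZNF146, 43.6% in ZNF91 and 59.0% in ZNF865. ZNF441 and ZNF146 were the members that passed the test below, ZNF91 encodes the most fingers of the set (31), and ZNF865 has the transcript richest in GC (71.1%). Over the 188 genes the longest coding sequence encoded a median of 12 fingers (range 0 to 31), counted as cysteine and histidine pairs 12 residues apart, and a median of 5 such linkers. The table's own annotation assigned 182 of the 188 to the C2H2 zinc finger family. ZNF738 held no finger by this count and ZNF428 held 1.

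Reads assigned to genes numbered 15161460 to 16497283 a library if the smallest value above 0 in each is taken as 1 read. The zinc finger genes took 42850 and 46559 of these reads with the inhibitor and 41226 and 39422 with DMSO, or 0.265% and 0.282% of the summed values with the inhibitor and 0.257% and 0.260% with DMSO. Markers of the line were present, with VIM at 22495 and 21453 with the inhibitor and at 21063 and 21187 with DMSO, and 7 such markers summed to 84904 and 82332 with the inhibitor and to 83076 and 80251 with DMSO. Of 7 luminal markers 5 had a row, summing to 1304 and 1341 with the inhibitor and to 1574 and 1393 with DMSO: ERBB2 at 871 to 1052, FOXA1, GATA3 and EPCAM were present at lower levels and ESR1 stayed under 10 in every library. Separate cultures are not stated in the labels, so every p-value here rests on the spread between libraries of a group, which could be technical only. An exact two-sided permutation test cannot go below p = 0.333 with 2 libraries a group, so limma, a linear model that shares variance across genes, was fitted to 22486 genes. Its p-values were adjusted by the Benjamini-Hochberg method over those genes, and fold changes were taken on log2(value + 1). In RNA from whole cultures, fewer cells that express a gene and less of its RNA per cell cannot be told apart.

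ZNF441 and ZNF146 rose with the inhibitor, and no member fell (limma adjusted p under 0.05). Of the 188 genes 2 passed, a share of 1.06%, against 2.15% of the genes tested (0.694% higher and 1.46% lower). At an unadjusted p under 0.05, 22 members stood higher and 12 lower, together 18.1% against 16.7% of the genes tested, where 8% stood higher and 8.69% lower. All members are protein-coding. Over the 14608 protein-coding genes tested 3.24% passed and 23.3% had an unadjusted limma p under 0.05, both above the shares of the members. Leaving out inhibitor replicate 1 or 2 or DMSO replicate 1 or 2 left 0 calls, among the zinc finger genes and among the genes tested (limma; 7 to 31 members and 1904 to 3112 genes at an unadjusted p under 0.05). Neither gene passed after a correction for transcript GC content, with 0.61 on the log2 scale (SE 0.15, limma adjusted p = 0.268) for ZNF441 and 0.17 (SE 0.06, limma adjusted p = 0.568) for ZNF146. After that correction 0.0934% of the genes tested passed and 0 members did, with 17 members at an unadjusted p under 0.05. The correction removes the trend on GC content whatever its source, an effect of the inhibitor included.

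ZNF441, a KRAB zinc finger gene of the short arm, stood at 219.6 and 282 normalised reads with the inhibitor, against 138 and 155 with DMSO. Both inhibitor libraries lay well above both DMSO libraries. Its mean was 251 ± 43.8 with the inhibitor and 146 ± 12.2 with DMSO (SD, n = 2 each), which gave 0.77 as log2 fold change (SE 0.16, limma adjusted p = 0.0272). The gene, ENSG00000197044, spans 11767000 to 11784078 of chromosome 19 (GRCh38, plus strand). None of the 100-base windows of its longest transcript occurred in a transcript of another gene, and no annotated exon of another gene overlapped it.

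ZNF146, whose protein consists of fingers alone and which is also known as OZF, was the member with the highest level, both in reads and per kilobase of gene length (637 per kb). It stood at 2735 and 3050.0 normalised reads with the inhibitor, against 2363 and 2416 with DMSO, with no overlap between the groups. The means were 2893 ± 222 with the inhibitor and 2389 ± 37.4 with DMSO (SD, n = 2 each), 0.27 on the log2 scale (SE 0.07, limma adjusted p = 0.0453). The gene (ENSG00000167635) spans 36214602 to 36238774 on the plus strand. Its exons overlap those of ZNF565 on the other strand and 6.79% of its 100-base windows also occur in another gene's transcript, so part of its count is uncertain. In the authors' deposited table ZNF146 was the 1 member with an adjusted p under 0.05 (0.0126, log2 fold change 0.28), a share of 0.532%, where 638 genes of that table (2.42%) had one. ZNF441 had a log2 fold change of 0.78 there, with an unadjusted p of 0.00136 and an adjusted p listed at 1.

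The other 11 most changed genes on the higher side, among those at a mean of at least 50 with both inhibitor libraries above both DMSO libraries, did not pass the test. ZNF432 stood at 240.4 and 271 with the inhibitor, against 182 and 176 with DMSO (log2 fold change 0.51, SE 0.14, limma adjusted p = 0.0645). ZNF566 stood at 222 and 195 with the inhibitor, against 160.4 and 116 with DMSO (0.61, SE 0.17, limma adjusted p = 0.0835). For ZNF432, whose exons overlap those of ZNF841, the pair of DMSO libraries lie close together, while for ZNF566 DMSO replicate 2 is the low value. ZNF701 stood at 132 and 114 with the inhibitor, against 96.7 and 58.8 with DMSO (0.69, SE 0.24, limma adjusted p = 0.139), and 9.38% of its windows are shared with another gene. ZNF420, also called APAK, a KRAB protein known as a negative regulator of p53, stood at 292 and 316 with the inhibitor, against 250.1 and 217 with DMSO (0.38, SE 0.13, limma adjusted p = 0.13). ZNF555 (0.58), ZNF546 (0.50), ZNF83 (0.47), ZNF17 (0.44), ZNF823 (0.44), ZNF552 (0.43) and ZNF230 (0.39) complete this side, each as a log2 fold change with SE from 0.17 to 0.24. After the GC content correction ZNF432 stood at 0.38, ZNF566 at 0.45, ZNF701 at 0.66 and ZNF420 at 0.24. The transcripts of these 12 genes, ZNF441 included, had GC contents of 37.0% to 46.2%.

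On the lower side, of the 12 most changed genes under the same conditions none passed the test. ZNF865 stood at 484 and 354 with the inhibitor, against 599 and 561 with DMSO (log2 fold change -0.49, SE 0.13, limma adjusted p = 0.0588). ZNF580 stood at 239 and 238 with the inhibitor, against 351 and 312 with DMSO (-0.47, SE 0.12, limma adjusted p = 0.0586). The inhibitor libraries of ZNF580, whose exons overlap those of ZNF581 and CCDC106, are nearly equal, whereas those of ZNF865 lie far apart. ZNF579 stood at 285 and 239 with the inhibitor, against 353 and 366 with DMSO (-0.46, SE 0.12, limma adjusted p = 0.0626). ZNF444 stood at 403 and 369 with the inhibitor, against 488 and 522 with DMSO (-0.39, SE 0.10, limma adjusted p = 0.0611). ZNF574 stood at 506 and 467 with the inhibitor, against 639 and 604 with DMSO (-0.35, SE 0.09, limma adjusted p = 0.0618). These 5 genes passed, with the same sign, when only protein-coding genes were fitted and when library totals were made equal.

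Transcripts of these 5 genes were rich in GC, from 57.8% in ZNF444 to 71.1% in ZNF865. After the GC content correction their log2 fold changes lay between -0.23 and -0.02, with ZNF865 at -0.02 (SE 0.10) and ZNF580 at -0.23 (SE 0.12). ZNF787, the second member by level per kilobase (255 per kb), stood at 887 and 841 with the inhibitor, against 1065 and 955 with DMSO (-0.22, SE 0.08, limma adjusted p = 0.174), and its sign turned with the correction (0.22, SE 0.08). ZNF446 (-0.79), ZNF414 (-0.53), ZNF653 (-0.41) and ZNF526 (-0.30) were GC-rich as well, at 57.8% to 65.2%, and ZNF446 shares 53.4% of its windows with another gene. ZNF69 and ZNF235 were not. ZNF69 stood at 38.7 and 39.5 with the inhibitor, against 67.8 and 61.9 with DMSO (-0.71, SE 0.27, limma adjusted p = 0.183), at a GC content of 43.5% and with -0.79 (SE 0.27) after the correction. ZNF235, at 41.4% GC, had a log2 fold change of -0.39 (SE 0.23) and of -0.49 after the correction.

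**Figure D1:**
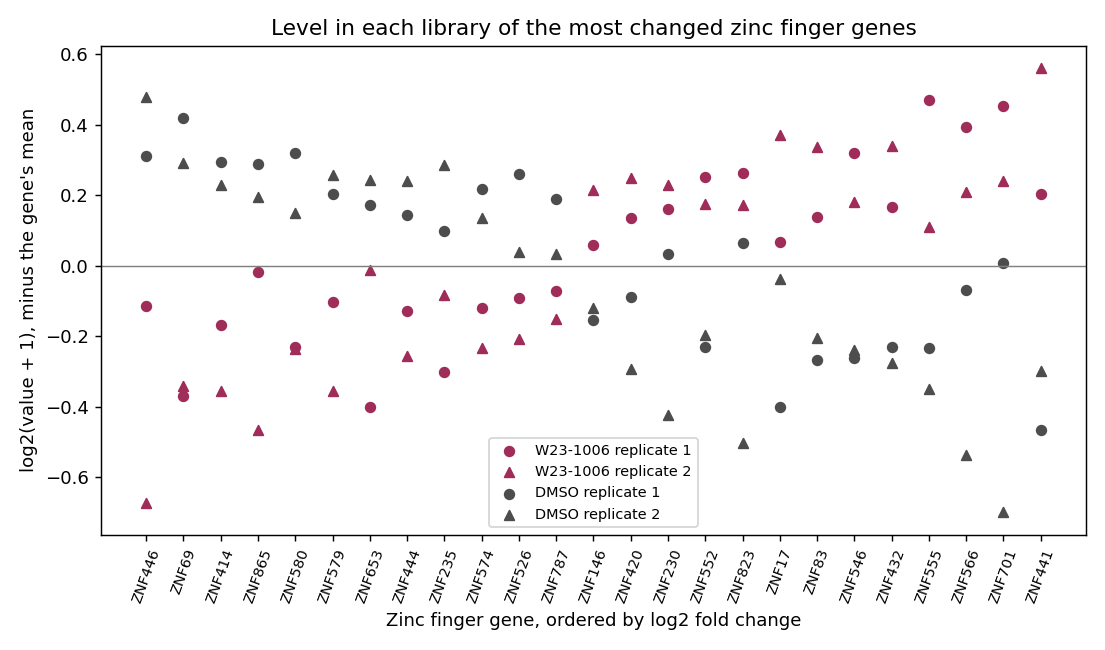
Level of the most changed zinc finger genes in each library, as log2(value + 1) minus the gene's mean over the 4 libraries; each point is 1 library, and genes run by log2 fold change. Inhibitor libraries lie below DMSO libraries for the 12 genes at the left and above them for the 13 at the right, from ZNF446 (-0.79) to ZNF441 (0.77).

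Across the family the zinc finger genes stood slightly higher with the inhibitor. The median log2 fold change of the 188 genes was 0.13 (quartiles -0.08 and 0.27), beside -0.01 over the genes tested, and 126 of 188 (67%) were positive against 48.7% of the genes tested. Both inhibitor libraries exceeded both DMSO libraries for 65 members (34.6%), where the background was 22.1%, and both fell short of both DMSO libraries for 23 (12.2%), where the background was 25%. Over the protein-coding genes tested these shares were 26.4% and 27.4%, and 49.4% were positive. The inhibitor libraries contributed unequally: the median deviation from the gene mean was 0.0078 and 0.11 with the inhibitor and -0.067 and -0.047 with DMSO, in replicate order. Without inhibitor replicate 2 the median log2 fold change was 0.071, and without inhibitor replicate 1 it was 0.19. Members with a mean of at least 100 (115 genes) had a median log2 fold change of 0.13 and the 73 weaker ones 0.12. Of the 115 genes 86 were positive, with 44.3% above and 10.4% below DMSO in both libraries. Of the 73 genes 40 were positive, with 19.2% above and 15.1% below. The filter on the mean used both groups, and these counts cover the members that passed it. Shares over all genes at each of these levels were not taken, so the difference by level is not read as a trait of the family.

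Numbered zinc finger genes on other chromosomes (212) had a median log2 fold change of 0.03, and 3 rose and 2 fell (limma adjusted p under 0.05). The other protein-coding genes of chromosome 19 (849) had a median of -0.21, with 2 that rose and 80 that fell. This list leaves out only symbols that start with ZNF, so it still holds zinc finger genes under other symbols, such as ZFP30. The shares called were 2.36% of the zinc finger genes elsewhere, which is near the 2.15% of the genes tested, and 9.66% of the other genes of chromosome 19. Of these other genes along the whole chromosome 18.5% had a positive log2 fold change, against 67% of its numbered zinc finger genes. The median GC content was 42.5% for the zinc finger genes of chromosome 19, 45.7% for those on other chromosomes and 60.2% for the other genes of chromosome 19. After the GC content correction the medians were 0.05 for the zinc finger genes of chromosome 19, 0.04 for those elsewhere, -0.01 for the other genes of chromosome 19 and 0.0035 for the genes tested. These differences between lists were not tested, since members are not replicates, and the part of GC content in them was not tested.

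**Figure D2:**
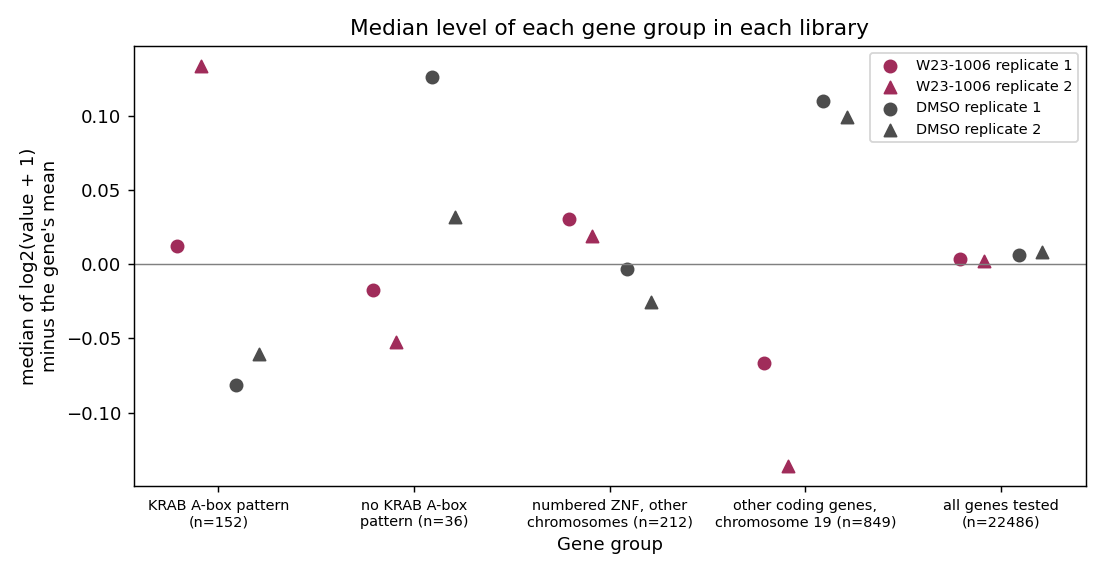
Median level of each gene group in each library, as log2(value + 1) minus the gene's mean; each point is 1 library. Zinc finger genes of chromosome 19 with a KRAB A-box pattern lie higher with the inhibitor (0.013 and 0.13) than with DMSO (-0.082 and -0.060), and the other coding genes of the chromosome lie lower.

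The family was divided by its KRAB domain. A pattern for the KRAB A box was searched in the translation of the longest coding sequence: phenylalanine or leucine, any residue, an acidic residue, an aliphatic residue, any residue, an aliphatic residue or methionine, any residue, phenylalanine, serine or threonine, any pair of residues, glutamate. The pattern was chosen with the fold changes known, and a miss does not show that the domain is absent. It occurred in 152 genes (80.9%), whose median log2 fold change was 0.14, with 111 positive and 41 negative. The 36 genes without it had a median of -0.13, with 15 positive and 21 negative. Both inhibitor libraries lay above both DMSO libraries in 57 genes with the pattern (37.5%) and in 8 without it (22.2%). They lay below in 12 genes with the pattern (7.89%) and in 11 without it (30.6%). Over the genes tested the shares were 22.1% above and 25% below, and over the protein-coding genes tested 26.4% and 27.4%. The shares of genes without the pattern, above and below DMSO, were thus close to these backgrounds, which were not matched for GC content.

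The same split ran along base composition. The genes with the pattern had a median transcript GC content of 42.2% (range 33.9% to 58.8%), a median of 13 fingers and 6 linkers. Those without it had a median GC content of 58.3% (36.7% to 71.1%), 9.5 fingers and 0 linkers. After the GC content correction the medians were 0.06 with the pattern and 0.03 without it. Genes without the pattern but with a GC content under 46% numbered 14, ZNF146 among them, and had a median of 0.22, with 12 of 14 positive. Because a miss does not show that the domain is absent, these 14 may include KRAB genes, and the group does not separate domain from GC content. Genes with the pattern and a GC content of at least 46% numbered 28 and had a median of 0.08, with 19 positive.

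Fold changes were also ordered along GC content with no reference to the domain. In the 63 genes with the lowest GC content (33.9% to 40.8%) the median log2 fold change was 0.21, 53 were positive, and the inhibitor libraries lay above the DMSO libraries in 32 and below in 1. In the 62 genes in the middle (40.9% to 44.5%) the median was 0.12, with 20 above and 7 below. In the 63 genes with the highest GC content (44.5% to 71.1%) the median was -0.015, with 13 above and 15 below. As shares these were 50.8% above and 1.59% below in the first group, 32.3% and 11.3% in the second, and 20.6% and 23.8% in the GC-richest. Over the genes tested the shares were 22.1% and 25%, so that the GC-richest members stood near that background. Over the protein-coding genes tested they were 26.4% and 27.4%, both somewhat above those of the GC-richest members. The genes tested had a median GC content of 47.9%, and neither background was matched to a group by GC content. Positive fold changes made up 84.1%, 69.4% and 47.6% of the groups in order of GC content, against 48.7% of the genes tested. Across the 188 genes the Spearman correlation of fold change with GC content was -0.38, a description across genes that share libraries. With the count of fingers it was 0.13, with transcript length 0.18 and with mean level -0.018. After the correction the correlation with GC content was -0.036. The correction subtracts the trend on GC content, so a weak correlation follows from the method itself. The ordering along GC content was not particular to this family. Across 12582 genes of the whole data set, those whose log2 values averaged 5 or more, fold change and GC content had a Spearman correlation of -0.66.

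**Figure D3:**
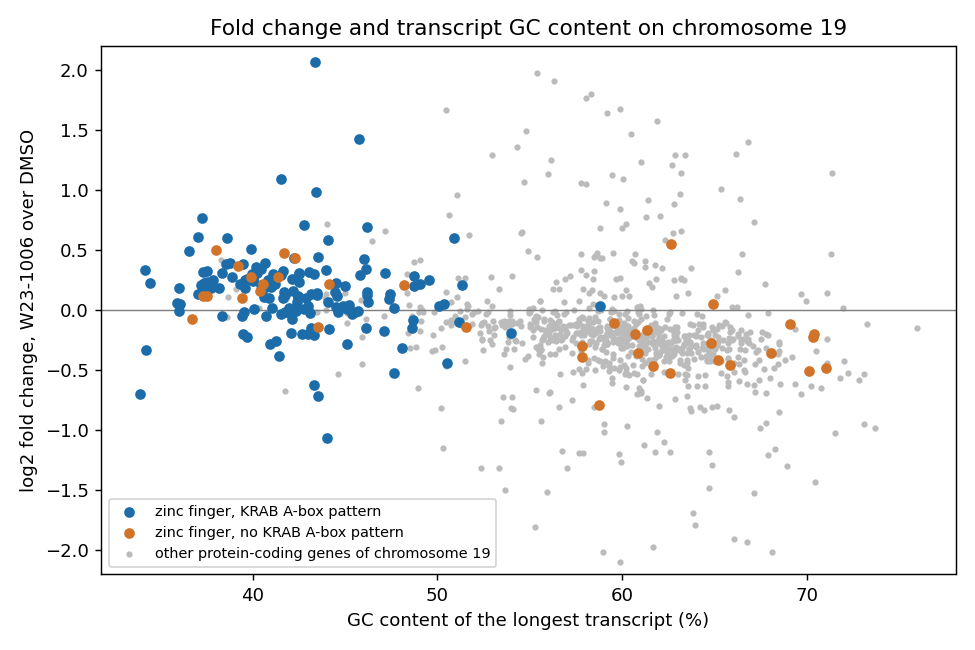
Log2 fold change (inhibitor over DMSO) against the GC content of the longest transcript, 1 point per gene; coloured points are zinc finger genes of chromosome 19 with (152) and without (36) the KRAB A-box pattern and grey points the 849 other coding genes of the chromosome. Zinc finger genes with the pattern sit at low GC content, median 42.2%, and mostly above 0, while GC-rich members lie among the grey points.

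The sequence GGACT, a common form of the motif in which N6-methyladenosine is written, was also counted. The longest transcripts of the zinc finger genes held a median of 0.814 copies per kb, beside 0.888 over the genes tested and 1.17 over the other coding genes of chromosome 19. Its density had a Spearman correlation of -0.032 with the log2 fold change over the 188 genes. The copies are letters in a sequence and not measured methylation.

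Members whose start sites lie within 1 Mb of the next were joined into clusters, and 9 clusters held at least 5 members (177 genes), with 11 genes outside them. Coordinates are GRCh38, and clusters are numbered from the short-arm end. Cluster 1 (7.07 to 9.79 Mb, 13 genes) had a median log2 fold change of 0.03, and cluster 9 (55.5 to 58.5 Mb, 48 genes) had 0.04. These were the lowest cluster medians. The highest were in cluster 4 (23.2 to 24.1 Mb, 6 genes, 0.29), cluster 2 (11.5 to 12.6 Mb, 22 genes, 0.22) and cluster 6 (36.2 to 37.8 Mb, 19 genes, 0.21). Between them lay cluster 3 (19.7 to 21.9 Mb, 15 genes, 0.19), cluster 8 (51.6 to 53.5 Mb, 27 genes, 0.15), cluster 5 (34.7 to 35.0 Mb, 5 genes, 0.14) and cluster 7 (43.5 to 45.1 Mb, 22 genes, 0.11).

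Cluster medians were also taken per library. The same 4 libraries lie behind every cluster, so the clusters do not repeat the comparison independently. In cluster 2, which holds ZNF441, the median deviation was 0.10 and 0.14 with the inhibitor, against -0.038 and -0.084 with DMSO. In cluster 6, which holds ZNF146, it was 0.13 and 0.074 with the inhibitor, against -0.089 and -0.037 with DMSO. The groups do not overlap in either cluster. In cluster 3 it was -0.060 and 0.17 with the inhibitor, against -0.087 and -0.10 with DMSO, and in cluster 5 it was -0.18 and 0.10 with the inhibitor, against -0.11 and -0.087 with DMSO, so that the groups overlapped in cluster 5. In cluster 9 it was -0.019 and 0.077 with the inhibitor, against -0.011 and -0.023 with DMSO, which also overlapped. In clusters 1, 4, 7 and 8 both inhibitor medians lay above both DMSO medians. The widest of these was cluster 4, with 0.038 and 0.27 with the inhibitor, against -0.19 and -0.15 with DMSO. Inhibitor replicate 1 lay closer to DMSO than inhibitor replicate 2 in all clusters but cluster 6. With GC content corrected, the groups did not overlap in clusters 2, 4 and 9, and they overlapped in clusters 1, 3, 5, 6, 7 and 8. Cluster 6 then stood at 0.089 and -0.018 with the inhibitor, against -0.029 and 0.016 with DMSO, and cluster 2 at 0.072 and 0.089 with the inhibitor, against -0.0046 and -0.025 with DMSO.

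Cluster 9 near the end of the long arm was mixed in composition. Its median GC content was 47.3%, with a range of 38.3% to 71.1%, where clusters 3 and 4 had medians of 37.4% and 37.2%. The 35 genes of cluster 9 with the KRAB pattern had a median log2 fold change of 0.13, and the 13 without it, ZNF865, ZNF580, ZNF579, ZNF444 and ZNF787 among them, had -0.28 at a median GC content of 64.8%. After the GC content correction these medians were 0.06 and 0.03. In the 19 genes of cluster 2 with the pattern the median was 0.26, and 0.16 after the correction. In cluster 4 the median was 0.14 after the correction, and in the other clusters it lay between -0.014 and 0.11.

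Other protein-coding genes that start inside a cluster, those without a ZNF symbol, had lower fold changes by median than the numbered zinc finger genes around them. These 90 genes had a median log2 fold change of -0.15 at a median GC content of 58.7%, and 22 of 90 were positive. The 759 outside the clusters had a median of -0.21 at 60.3% GC. In cluster 6 the 4 other genes had a median of 0.16 at 38.9% GC, with 2 of 4 positive. They were ZFP30 (0.41), ZFP82 (0.38), HKR1 (-0.05) and ZFP14 (-0.06), which are themselves zinc finger genes under other symbols. Clusters 3, 4 and 5 held no other tested protein-coding gene. After the GC content correction the medians were 0.0033 inside the clusters and -0.01 outside. No test was made of these differences.

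**Figure D4:**
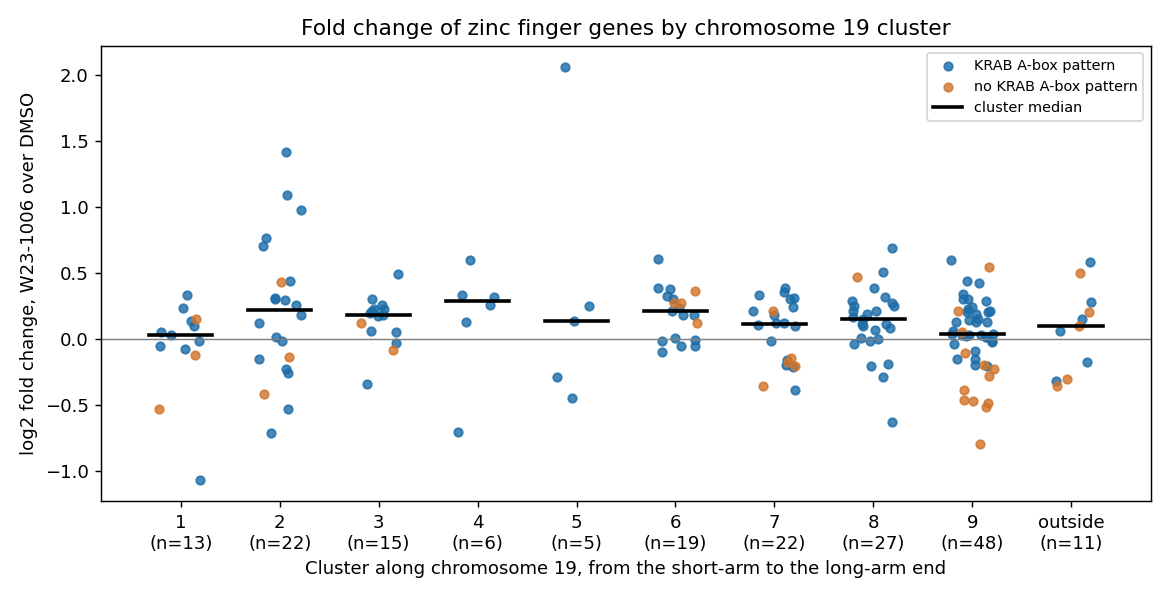
Log2 fold change (inhibitor over DMSO) of the 188 zinc finger genes by cluster along chromosome 19; each point is 1 gene, coloured by the KRAB A-box pattern, and bars are cluster medians, from 0.03 in cluster 1 to 0.29 in cluster 4. The 3 highest points, in clusters 2 and 5, are genes with under 10 reads in every library; the highest, ZNF599, is listed at 0 in both DMSO libraries, so its plotted fold change depends on the pseudocount.

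Apart from ZNF146 in cluster 6, the member with the highest level per kilobase in each cluster did not pass the test in any cluster. ZNF121 in cluster 1 stood at 1613 and 1645 with the inhibitor, against 1469.9 and 1452 with DMSO (log2 fold change 0.16, SE 0.07, limma adjusted p = 0.242). ZNF45 in cluster 7 stood at 770.03 and 864 with the inhibitor, against 737 and 758 with DMSO (0.12, SE 0.09), and ZNF254 in cluster 4 at 241 and 290.2 with the inhibitor, against 204 and 216 with DMSO (0.33, SE 0.14, limma adjusted p = 0.227). In these genes the groups did not overlap. ZNF302 in cluster 5 had 0.14 (SE 0.11), ZNF714 in cluster 3 had 0.12 (SE 0.11), ZNF700 in cluster 2 had 0.02 (SE 0.11) and ZNF841 in cluster 8 had 0.01 (SE 0.09). ZNF714, ZNF700 and ZNF841 overlapped between the groups. Level per kilobase ranged from 0.241 to 637 over the 188 genes, with a median of 29.8, and was highest by median in cluster 1 (51.6) and lowest in cluster 4 (9.21).

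Members with a known target, picked for that role after their values were seen, did not pass. ZNF91, which silences SVA elements, stood at 73.5 and 98.4 with the inhibitor, against 71.8 and 83.6 with DMSO (log2 fold change 0.13, SE 0.23). ZNF93, which silences a family of L1 elements, stood at 33.8 and 50.1 with the inhibitor, against 40.9 and 26.8 with DMSO (0.31, SE 0.35). Both overlapped between the groups. ZNF274, which recruits SETDB1 to the zinc finger genes themselves, stood at 627 and 618 with the inhibitor, against 545 and 532 with DMSO, with no overlap (0.21, SE 0.09, limma adjusted p = 0.246).

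Among 21 measured genes of the KRAB corepressor machinery 1 rose and 2 fell (limma adjusted p under 0.05). This was a share of 14.3%, against 2.15% of the genes tested and 3.24% of the protein-coding genes tested. The list stood at a higher level, with a median of 1543 normalised reads beside 70.4 over the genes tested. With a minimum mean of 10 the share called over all genes was 8.43%, so these shares are not compared at like levels. The list had a median log2 fold change of 0.05 beside -0.01. TRIM28, the corepressor bound by KRAB, stood at 10721 and 9594 with the inhibitor, against 12779.9 and 12118 with DMSO, and fell (log2 fold change -0.30, SE 0.06, limma adjusted p = 0.0235). Its transcript has 63.7% GC, and after the correction its log2 fold change was -0.02 (limma adjusted p = 0.96). ATRX, a chromatin remodeller of heterochromatin, rose (0.34, SE 0.06, limma adjusted p = 0.0206), and UHRF1, which directs DNA methylation to replicated DNA, fell (-0.27, SE 0.06, limma adjusted p = 0.0355). After the correction they stood at 0.18 and -0.17 and did not pass. SETDB1, the histone methyltransferase of the complex, stood at 418 and 366 with the inhibitor, against 393 and 358 with DMSO (0.06, SE 0.11). FAM208A, a subunit of the HUSH silencing complex, had 0.18 (SE 0.05, limma adjusted p = 0.074).

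Short motifs and CpG dinucleotides were also counted in the promoters of the zinc finger genes. RefSeq promoters on GRCh38.p14, from 250 bases before to 50 after the start, were matched by symbol for 167 of the 188 genes. Motifs were searched on both strands. The ETS-type motif CCGGAAG occurred in 43.1% of them, against 10.7% of the 27305 promoters in the table, CCAAT in 52.1% against 35.7%, the GC box GGGCGG in 68.9% against 44.6%, and TATAAA in 1.8% against 12%. The median count of CpG dinucleotides was 20 against 14. Among genes with the KRAB pattern (133 promoters) CCGGAAG occurred in 46.6% and CCAAT in 57.9%, and among those without it (34 promoters) each occurred in 29.4%. The 27305 promoters were not limited to protein-coding genes or by level, whereas the members are protein-coding and passed a level minimum. These shares are therefore not compared between like sets, and no difference was tested. A match is a run of letters and not a site shown to be bound.

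The promoters of ZNF441, which rose, and of ZNF865, the member with the GC-richest transcript, are given to show the contrast; capitals mark the CCAAT motif, the GC box and the ETS-type motif above on either strand, and the first 3 matches in ZNF865 overlap in turn. ZNF441 (chr19:11766750-11767049, plus strand) has 59.3% GC and 14 CpG dinucleotides, and ZNF865 (chr19:55605397-55605696, plus strand) has 74.7% GC and 40.
ZNF441: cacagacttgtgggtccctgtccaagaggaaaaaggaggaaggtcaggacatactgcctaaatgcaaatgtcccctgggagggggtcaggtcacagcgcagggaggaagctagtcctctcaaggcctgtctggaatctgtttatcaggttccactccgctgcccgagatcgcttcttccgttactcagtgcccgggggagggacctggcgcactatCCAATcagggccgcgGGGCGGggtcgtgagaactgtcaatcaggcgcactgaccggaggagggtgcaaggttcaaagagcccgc
ZNF865: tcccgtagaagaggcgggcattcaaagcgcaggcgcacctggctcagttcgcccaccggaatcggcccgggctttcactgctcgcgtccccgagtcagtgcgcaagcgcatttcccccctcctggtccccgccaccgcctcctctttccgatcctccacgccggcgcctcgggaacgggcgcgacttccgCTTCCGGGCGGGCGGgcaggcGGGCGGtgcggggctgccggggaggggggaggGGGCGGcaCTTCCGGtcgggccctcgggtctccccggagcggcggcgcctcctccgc

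Shared sequence limits how well single members can be counted. Of the 188 genes 95 had no 100-base window in common with a transcript of another gene, and 49 had over 5% of their windows in common. The median log2 fold change was 0.10 in the 95 and 0.11 in the 49. At the level minimum, ZNF439, ZNF737 and ZNF599 were just inside it, at means of 1.25, 1.71 and 1.72, and ZNF541, ZNF486 and ZNF793 just outside, at 0.986, 0.972 and 0.748. The other 7 genes left out were ZNF442, ZNF229, ZNF556, ZNF682, ZNF331, ZNF540 and ZNF676, each listed with at most 3 reads in any library.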

How the data were processed

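Polyadenylated RNA of 4 libraries was sequenced, with random-hexamer cDNA per the labels' protocols. The deposited table gives each library a signal, the authors' read counts divided by a scaling factor, as the values show: 100% were whole multiples (within 0.001) of the column's smallest value. In 2 columns that step lay too close to 1 for reads to be claimed as recovered, so no count test was run. The submitters' processing notes name HISAT2 2.0.5, DESeq2 1.20.0, featureCounts 1.5.0-p3, fastp and CASAVA on GRCh38. What each did is not given in the sources used here, nor are annotation release and strand setting. Thus reads of overlapping genes on opposite strands cannot be told apart. Per the file headers, the deposited table further gives a log2 fold change, a p-value and an adjusted p-value from the authors. Columns named treatment and control were taken as the inhibitor and DMSO.

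Limma 3.58.1 (R 4.3.3) was fitted to log2(value + 1) of the 22486 genes with a mean of at least 1, with a mean-variance trend, two-sided, adjusted at 0.05, and was tested on simulated data. GC content is that of the longest GENCODE release 29 transcript. The GC content correction subtracts per library a loess curve (span 0.3) of the log2 deviation on GC content, fitted where the mean log2 value reached 5; gene length was treated likewise. Read depth, and 2 libraries per group, limit the precision of weak members. Chi-square per gene between replicates was 4.08 with the inhibitor and 2.82 with DMSO, so no pair was counted as 1 sample. Named are members past the threshold, up to 12 per direction at a mean of at least 50 without overlap, the strongest per kilobase of each cluster, 3 genes on each side of the level minimum, and of the corepressors TRIM28, SETDB1 and the 4 with the smallest p. ZNF91, ZNF93 and ZNF274 were picked for their roles, and the KRAB pattern, linkers and motifs chosen, after values were seen. Alternatives covered pseudocounts, filters, scalings, voom, trend, corrections, a replicate block and each library left out. Members, lists and tests were chosen with earlier results of these data known.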

Additional observations from a re-analysis of the deposited data

How the results depend on the processing

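The 2 members called higher became 0 with a pseudocount of 0.1, with no filter on low values, without the mean-variance trend and with the GC content correction (32, 34, 18 and 17 members at an unadjusted p under 0.05), and 5 with a minimum mean of 10 or with protein-coding genes only (ZNF432, ZNF566 and ZNF791 added). ZNF432 was called in 4 of the 17 alternatives, so a setting beyond these and the replicate block below also called it higher. Members called lower numbered 0, but 5 (ZNF444, ZNF574, ZNF579, ZNF580 and ZNF865) with a pseudocount of 5, a minimum mean of 10, protein-coding genes only, equal totals or limma-voom, and 2 (ZNF444 and ZNF865) with the gene length correction. The 484 genes called in all became 0 with a pseudocount of 0.1 (3515 at an unadjusted p under 0.05), no filter (3568) or no trend (1866), 770 with a pseudocount of 5, 1265 with a minimum mean of 10, 1133 with protein-coding genes only, 820 with equal totals, 1192 with limma-voom, 21 with the GC content correction and 774 with the gene length correction. Without each library in turn the counts of members called higher, of members called lower and of all genes called were 0 (1904 to 3112 genes at an unadjusted p under 0.05; limma), and the median log2 fold change of the members ran from 0.071 to 0.19; the lone library of a group is then assumed to vary like the other group. With the GC content correction that median was 0.053. The cause of these shifts was not tested.

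The labels do not state whether the replicate numbers pair the libraries. The correlation of same-numbered deviations was 0.044, which with 2 libraries per group cannot settle it. With a replicate block 7 members were called higher, 5 lower and 1731 genes in all. With the GC content correction and the replicate block, a combination added after the data were seen, 1 member (ZNF441) was called higher, 0 lower and 200 genes in all, at a median of 0.053.

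Signs turned with the GC content correction, with or without the block, for ZNF787 (0.22), ZNF700 (-0.089), ZNF841 (-0.081), ZNF714 (-0.029) and ZNF302 (-0.014). Over the libraries left out in turn ZNF841 ran from -0.018 to 0.029, ZNF700 from -0.037 to 0.075 and ZNF714 from -0.0074 to 0.25. ZNF841 also turned with equal totals (-0.0086), limma-voom (-0.0083), without DMSO replicate 1 and without inhibitor replicate 2 (-0.010), ZNF700 without DMSO replicate 1 and ZNF714 without inhibitor replicate 2. None of these 5 genes was called. Over the 17 alternatives ZNF441 was called in 9 (limma adjusted p from 0.000124 to 0.578) and ZNF146 in 8 (0.000639 to 0.579).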
